A study of Homo sapiens with 6 samples.

Results

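The genes described here encode the chains of human collagens. They were found as protein-coding genes whose symbol reads COL, a number, A and a number, after the transcript rows of the deposited table had been summed per gene with GENCODE release 29. This gave 44 genes of 19867 protein-coding genes and 58478 genes in all. Each was assigned to a structural class by textbook knowledge, with 11 genes in the fibrillar class, 6 in type IV, and 27 in other classes. The study sequenced rRNA-depleted total RNA of Huh7, a line from a human hepatocellular carcinoma, with the genotype given as WT. It compared 3 libraries of cells kept at 1% oxygen for 24 h (hypoxia, columns C4, C5 and C6) with 3 libraries of cells kept at 21% oxygen (normoxia, columns C1, C2 and C3). Cells of both groups grew in DMEM with fetal bovine serum and antibiotics, and a single line was used, so the values describe this line alone. The replicates are labelled biological with no word on separate cultures, and a p-value here therefore speaks of the spread among these libraries, which may be technical.

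Collagens are proteins of the extracellular matrix in which chains wind around each other into a triple helix before they leave the cell. Fibrillar collagens assemble into the fibrils that carry tension in connective tissue, type IV collagen forms the sheet-like network of basement membranes, and other classes decorate fibrils, anchor epithelia or span the plasma membrane. Folding needs hydroxylation of proline and lysine by enzymes that use molecular oxygen. In liver, collagen deposition is best known from stellate cells and fibroblasts during scarring.

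Depth was 37621426 to 40794783 expected counts per library. The libraries held little mRNA of most of the listed hepatocyte markers, the genes that define the main cell type of liver. Of 15 markers, 11 were under 1 CPM in every library and 6 had no count at all, among them AFP, APOA1 and TTR. ALB had at most 3 counts in a library, whereas CPS1, a urea cycle enzyme of hepatocytes, averaged 1773 CPM in hypoxia and 2138 CPM in normoxia. Over the list 3 markers rose and 1 fell. AFP and ALB are known as products of Huh7, so these markers do not bear out the label of the line, and its identity was not tested further. CPM here is the usual depth-scaled count of a gene, with the library size adjusted by edgeR's TMM factors. Of 12 fibroblast and stellate cell markers that are not collagens, 7 were under 1 CPM in every library and PDGFRA had 0 counts. Their summed level was 175, 180 and 176 CPM in hypoxia, against 152, 153 and 148 CPM in normoxia, with 4 of them risen and none fallen. FBLN1 gave most of that sum, with means of 145 CPM in hypoxia and 128 CPM in normoxia. It rose 1.14-fold, while PDGFRB rose 2.87-fold, RGS5 2.02-fold and ACTA2 1.5-fold. In bulk RNA, a change in the number of cells of a type and a change in RNA per cell cannot be told apart.

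Collagen mRNA changed in both directions, with more genes risen than fallen. Of the 44 genes, 26 had enough counts to be tested. In hypoxia against normoxia 17 of these 26 rose, 4 fell and 5 did not pass the test, which was edgeR's quasi-likelihood test with Benjamini-Hochberg adjustment over all 17396 genes tested at a threshold of 0.05. Over all genes tested, 72.8% passed in either direction, with 36.5% risen and 36.3% fallen, and over the tested protein-coding genes 34.7% rose and 43.0% fell. The median log2 change was 0.68 over the 26 collagen genes and 0.02 over all genes tested. At least 2-fold rises were seen in 9 collagen genes and at least 2-fold falls in 2, where 17.5% and 11.4% of all genes tested made such changes. Of 13140 tested protein-coding genes, 1795 rose and 1607 fell by that much. The CPM values of hypoxia and normoxia did not overlap for 22 of the 26 genes, and for 75.7% of all genes tested.

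Some of these genes were tested because of a single group. A gene was kept when at least 3 libraries had about 0.269 CPM, and 20 collagen genes met this in both groups. Among those 20, 13 rose, 3 fell and 4 did not pass. The share over all genes kept in both groups was not computed, so the shares above are not a like background for these 20. COL13A1, COL28A1, COL3A1 and COL5A3 were kept through their hypoxia libraries alone, and COL26A1 and COL9A2 through their normoxia libraries alone. COL13A1, COL3A1 and COL5A3 are among the at least 2-fold rises, and COL9A2 is among the at least 2-fold falls. The 2-fold counts and the median above thus include genes tested only through the group where they are high. The other 18 of the 44 genes were below the filter, with at most 17 counts in a library, and COL1A2, COL6A5 and COL9A1 had 0 counts in every library. A count of 0 allows a level of up to 0.0868 CPM in hypoxia and 0.0757 CPM in normoxia, counting error only.

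**Figure D1:**
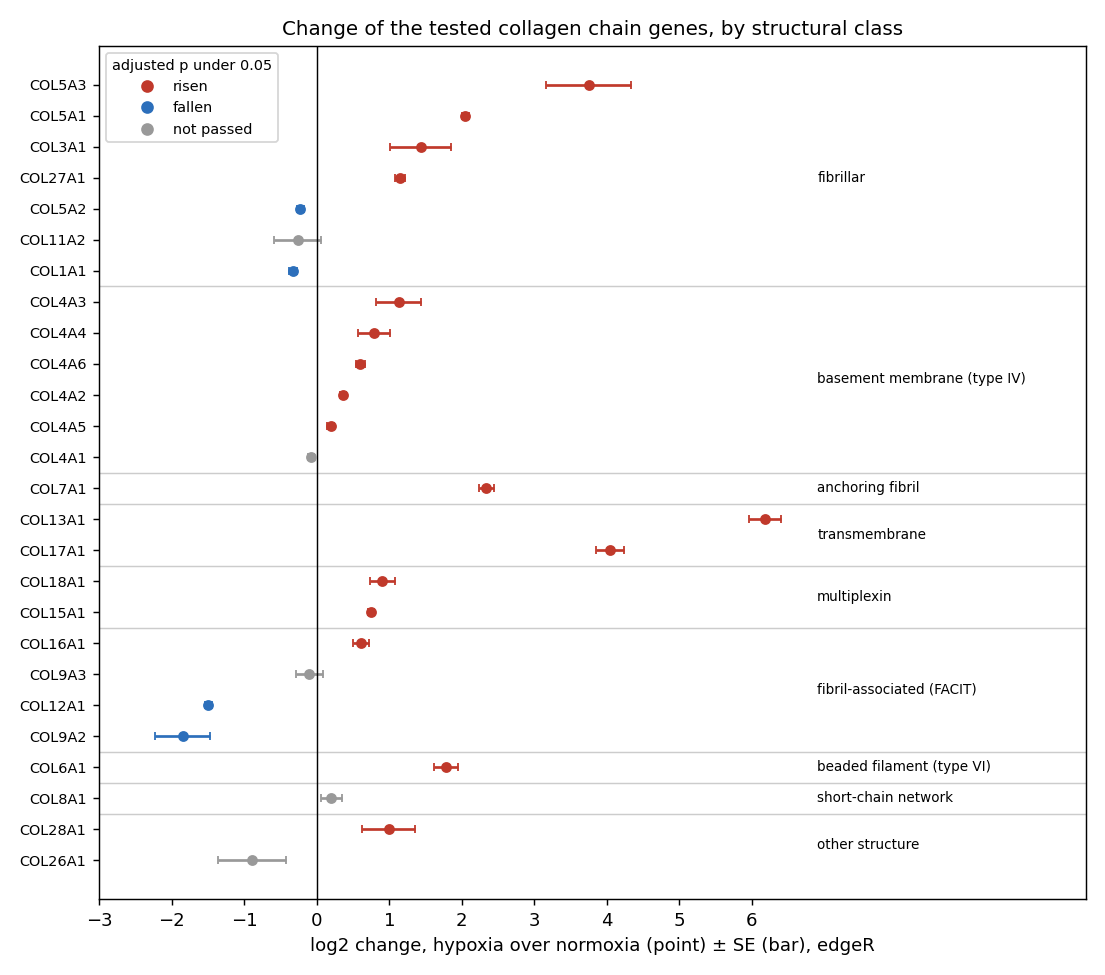
Log2 change in hypoxia over normoxia (x axis) of the 26 tested collagen chain genes, grouped by structural class, with points for the edgeR estimate and bars for its SE. COL13A1 lies farthest to the right at 6.18 and COL9A2 farthest to the left at -1.85, and of the 6 type IV genes only COL4A1 has an estimate below 0.

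The genes with the largest changes among those with a mean of 1 CPM or more in a group came from several classes. COL13A1, a transmembrane collagen of cell-matrix and nerve-muscle contacts, had 9.06, 7.78 and 7.67 CPM in hypoxia, against 0.0755, 0.15 and 0.102 CPM in normoxia. The normoxia values stand for 3, 6 and 4 counts, so the log2 change of 6.18 ± 0.22 (SE, edgeR adjusted p = 1.83e-09) rests on 13 counts in normoxia and 849 in hypoxia. COL17A1, the transmembrane collagen of hemidesmosomes that ties epithelial cells to the basement membrane, had 13.7, 11.3 and 11.3 CPM in hypoxia, against 0.504, 0.7 and 0.994 CPM in normoxia. Every hypoxia library lay above every normoxia library for both genes, and COL17A1 rose 16.5-fold (log2 change 4.04 ± 0.20 SE, edgeR adjusted p = 1.69e-08). Limma on log2(FPKM + 0.5), where the pseudocount shrinks changes of low genes, gave smaller log2 changes of 2.63 for COL13A1 and 2.59 for COL17A1, and over all alternatives they were 1.9 to 6.46 and 2.02 to 4.31. Both were minor collagens in these cells even in hypoxia, since together with the rest of their class they made up 1.1% of collagen FPKM, the level per transcript length computed from the counts.

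COL7A1, whose product forms the anchoring fibrils below epithelial basement membranes, had 288, 219 and 261 CPM in hypoxia, against 50.7, 56.4 and 44.9 CPM in normoxia. It rose 5.06-fold (log2 change 2.34 ± 0.10 SE, edgeR adjusted p = 8.99e-09), and the lowest hypoxia library was far above the highest normoxia library. COL5A1, the alpha-1 chain of type V collagen, a fibrillar collagen known to start fibril assembly, was the most abundant collagen mRNA in CPM in each group. Per length, COL4A2 was higher in normoxia, with a mean of 88.1 FPKM against 81.8 FPKM for COL5A1. COL5A1 had 2779, 2717 and 2473 CPM in hypoxia, against 661, 644 and 627 CPM in normoxia. COL5A1 rose 4.13-fold with a log2 change of 2.04 ± 0.05 (SE, edgeR adjusted p = 9.66e-11). By mean FPKM it ranked 170 among protein-coding genes in hypoxia and 742 in normoxia. In the other direction stood COL12A1, a fibril-associated collagen found on type I fibrils, with 52.6, 50.5 and 52.9 CPM in hypoxia, against 141, 149 and 150 CPM in normoxia. It fell by 1.5 ± 0.04 on the log2 scale (SE, edgeR adjusted p = 4.58e-10), so the normoxia level was 2.82-fold the hypoxia level.

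The promoters of these 5 genes are shown because hypoxia-inducible factors (HIF) bind DNA at a short core. They are the 4 risen genes and the 1 fallen gene with the largest changes among those with a mean of 1 CPM or more in a group. The sequences are RefSeq's (GRCh38.p14), each 200 bases on the gene's own strand, from 250 to 51 bases before the annotated start. The most abundant coding transcript begins 212 bases after this start for COL13A1 and 62 bases after it for COL7A1. For the other genes shown it begins closer to this start. Which start the cells used was not tested. Capitals mark the letters ACGTG or GCGTG, the HIF core in its usual forms, found on either strand, so that CACGT and CACGC are the same letters read from the other strand. The stretches are chr10:69801656-69801855 (plus strand) for COL13A1, chr10:104085931-104086130 (minus) for COL17A1, chr3:48595380-48595579 (minus) for COL7A1, chr9:134641553-134641752 (plus) for COL5A1 and chr6:75206104-75206303 (minus) for COL12A1.
COL13A1: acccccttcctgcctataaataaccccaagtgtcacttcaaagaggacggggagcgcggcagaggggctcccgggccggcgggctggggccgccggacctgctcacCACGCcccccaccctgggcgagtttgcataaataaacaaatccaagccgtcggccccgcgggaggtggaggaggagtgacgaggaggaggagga
COL17A1: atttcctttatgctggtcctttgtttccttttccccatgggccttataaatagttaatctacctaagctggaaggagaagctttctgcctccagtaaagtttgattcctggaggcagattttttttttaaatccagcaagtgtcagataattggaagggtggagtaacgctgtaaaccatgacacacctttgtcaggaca
COL7A1: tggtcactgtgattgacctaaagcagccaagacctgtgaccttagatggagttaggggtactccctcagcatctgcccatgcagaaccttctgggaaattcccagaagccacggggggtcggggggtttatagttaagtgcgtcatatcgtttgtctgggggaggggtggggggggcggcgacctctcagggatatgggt
COL5A1: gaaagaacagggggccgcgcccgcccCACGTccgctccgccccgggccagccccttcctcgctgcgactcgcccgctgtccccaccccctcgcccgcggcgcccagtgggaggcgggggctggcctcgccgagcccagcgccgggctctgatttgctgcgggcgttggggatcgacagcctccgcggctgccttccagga
COL12A1: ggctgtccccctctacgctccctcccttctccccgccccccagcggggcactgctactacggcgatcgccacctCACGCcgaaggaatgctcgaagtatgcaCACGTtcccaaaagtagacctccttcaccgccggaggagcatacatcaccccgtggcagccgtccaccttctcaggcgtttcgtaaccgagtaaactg

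COL13A1 and COL5A1, which rose, hold the letters once in these stretches. COL12A1, which fell, holds them at 2 places. COL7A1 and COL17A1, which rose, do not hold them there. Over windows of 300 bases, from 250 before to 50 after the start, RefSeq sequence was at hand for 32 of the 44 collagen genes, and 17 of these 32 (53.1%) held the letters on either strand, where 17012 of all 35116 promoter windows (48.4%) did. Of the risen genes with a window, 7 of 15 (46.7%) held them. A match describes letters and is neither a binding site nor a cause, and a window without a match says nothing about the factor.

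**Figure D2:**
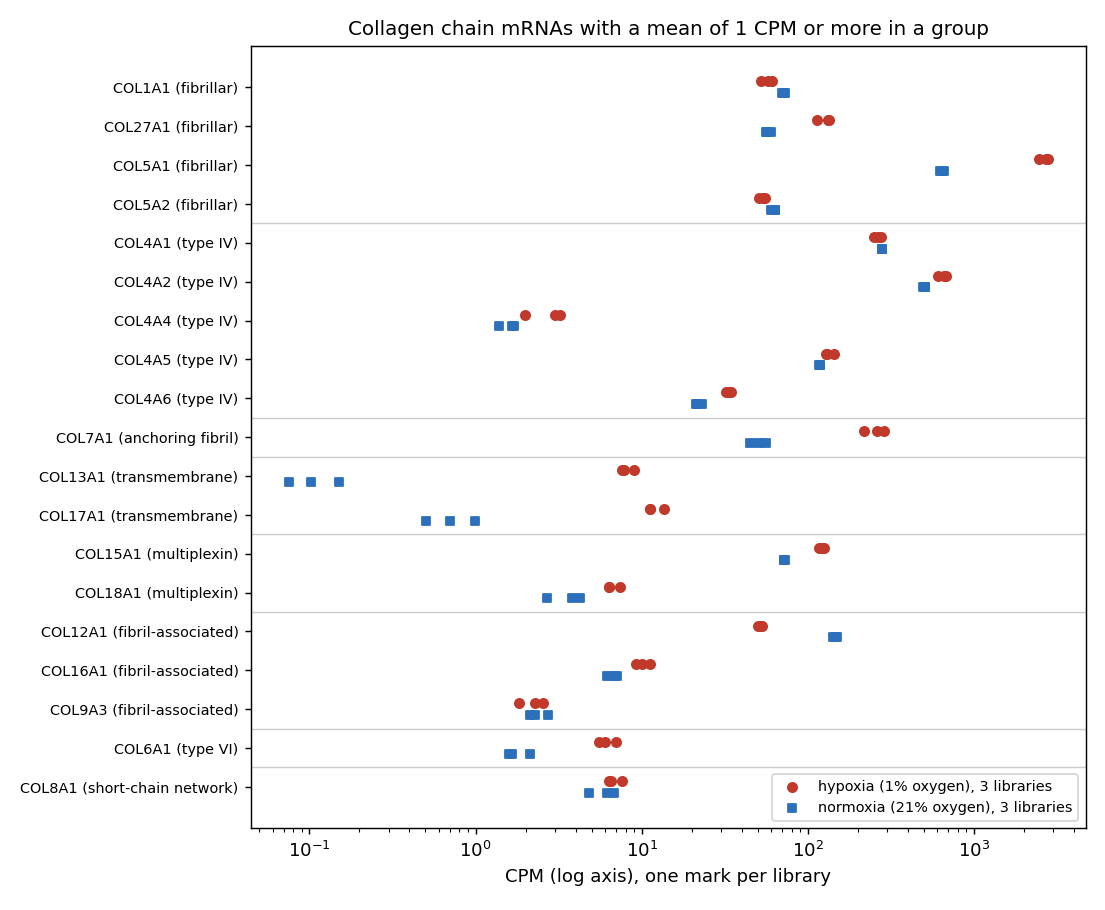
Level of each collagen chain mRNA with a mean of 1 CPM or more in a group, in CPM on a log axis, with circles for the 3 hypoxia libraries and squares for the 3 normoxia libraries. COL5A1 is the rightmost gene in each group, and the marks of hypoxia and normoxia are farthest apart for COL13A1 and COL17A1.

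Of the 11 fibrillar genes, 7 were tested. Among them 4 rose, 2 fell and 1 missed the threshold. The risen ones were COL5A1, COL27A1, COL5A3 and COL3A1. COL27A1, a fibrillar collagen of cartilage and other developing tissue, had 133, 135 and 114 CPM in hypoxia, against 59.9, 57 and 55.7 CPM in normoxia. It rose 2.21-fold (log2 change 1.15 ± 0.07 SE, edgeR adjusted p = 7.07e-08). COL5A3, the alpha-3 chain of type V collagen, had 0.729, 1.18 and 0.928 CPM in hypoxia, against 0.126, 0 and 0.0765 CPM in normoxia, with a log2 change of 3.75 ± 0.59 (SE, edgeR adjusted p = 0.000178). COL3A1, the type III chain of soft tissue and of scarred liver, stood at 0.421, 0.49 and 0.329 CPM in hypoxia, against 0.126, 0.2 and 0.127 CPM in normoxia. COL3A1 passed edgeR's quasi-likelihood test (log2 change 1.43 ± 0.42 SE, adjusted p = 0.0107), but its adjusted p was 0.0601 with DESeq2, and both genes were kept through hypoxia libraries alone.

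The fallen fibrillar genes changed little. COL1A1, the alpha-1 chain of type I collagen, had 57.4, 61.1 and 52 CPM in hypoxia, against 72.5, 71.8 and 70 CPM in normoxia, a log2 change of -0.33 ± 0.06 (SE, edgeR adjusted p = 0.000469). Its usual partner COL1A2 had 0 counts in all 6 libraries, while COL1A1 had 2046, 2122 and 1738 counts in hypoxia and 2879, 2872 and 2747 in normoxia. COL5A2, the partner chain of COL5A1 in the common form of type V collagen, had 50.7, 55.5 and 53.6 CPM in hypoxia, against 63.4, 60 and 63.9 CPM in normoxia. The groups did not overlap, and COL5A2 fell by 0.23 ± 0.05 on the log2 scale (SE, edgeR adjusted p = 0.00202). Neither fall passed limma on log2(FPKM + 0.5), where the log2 changes were -0.16 for COL1A1 and -0.23 for COL5A2. COL11A2 averaged 0.613 CPM in hypoxia and 0.739 CPM in normoxia and did not pass the edgeR test (adjusted p = 0.472). COL2A1, COL11A1 and COL24A1 were below the filter. The 7 listed cartilage markers, which include COL2A1 itself and COL10A1, were under 1 CPM in every library.

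With COL5A1 up and COL5A2 slightly down, the balance of the type V chains moved. The ratio of COL5A1 to COL5A2 in FPKM was 41.6, 30.6 and 30.1 in hypoxia, against 7.13, 8.69 and 7.05 in normoxia. The ratio of COL5A1 to COL1A1 averaged 17.1 ± 0.744 in hypoxia and 4.06 ± 0.212 in normoxia (SD, n = 3 each). Both ratios were above 1 in every library and higher in each hypoxia library than in any normoxia library.

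Type IV collagen genes moved by less, and all 6 were tested. Of these, 5 rose, none fell and COL4A1 was not called. Their median log2 change was 0.48. They lie in head-to-head pairs, and the most abundant pair is COL4A1 and COL4A2, whose chains form the network present in nearly all basement membranes. COL4A2 had 677, 658 and 606 CPM in hypoxia, against 508, 511 and 494 CPM in normoxia. It rose 1.28-fold (log2 change 0.36 ± 0.05 SE, edgeR adjusted p = 3.78e-05), and the groups did not overlap. COL4A1 had 277, 264 and 252 CPM in hypoxia, against 281, 280 and 279 CPM in normoxia. Its log2 change was -0.08 ± 0.04 (SE, edgeR adjusted p = 0.0967), and it passed as lower in hypoxia when library totals replaced TMM factors (-0.24), in limma on log2(FPKM + 0.5) (-0.20) and without hypoxia library C4 (-0.12).

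The ratio of COL4A2 to COL4A1 in FPKM was 2.39, 2.46 and 2.35 in hypoxia, against 1.89, 1.87 and 1.84 in normoxia, with no overlap between the groups. RefSeq's starts of these genes, which point away from each other, lie 126 bases apart on chromosome 13. The GCGTG letters lie once in the COL4A2 window, 220 bases before its start. No such letters lie in the COL4A1 window, although both windows share 226 bases.

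COL4A5 and COL4A6, the X-linked pair whose chains occur together in smooth muscle and some epithelial basement membranes, both rose. COL4A6 had 34.3, 32.4 and 33.7 CPM in hypoxia, against 22, 21.2 and 23.1 CPM in normoxia, a log2 change of 0.60 ± 0.06 (SE, edgeR adjusted p = 4.67e-06). COL4A5 had 144, 129 and 131 CPM in hypoxia, against 119, 117 and 119 CPM in normoxia, a log2 change of 0.19 ± 0.05 (SE, edgeR adjusted p = 0.00453). The groups did not overlap for either gene, but the COL4A5 change was 0.04 with library totals and 0.07 with limma and no longer passed. COL4A3 and COL4A4, chains of the kidney filter and of lung, were scarce. COL4A4 had 3.23, 1.99 and 2.99 CPM in hypoxia, against 1.66, 1.7 and 1.38 CPM in normoxia (log2 change 0.79 ± 0.22 SE, edgeR adjusted p = 0.0076). COL4A3 had 0.729, 0.749 and 0.689 CPM in hypoxia, against 0.302, 0.3 and 0.382 CPM in normoxia (log2 change 1.13 ± 0.31 SE, edgeR adjusted p = 0.00715). Exons of COL4A3 overlap an antisense gene by 120 bases, and the strand setting of the authors' counting is unknown here. The antisense gene, AC097662.1, averaged 0.829 CPM in hypoxia and 0.377 CPM in normoxia, against 0.722 and 0.328 CPM for COL4A3. Whether these genes share reads was not tested.

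Among the 27 genes of other classes, 13 were tested, with 8 risen, 2 fallen and 3 short of the threshold. Both multiplexins, which are basement membrane collagens with interrupted helices, rose. COL15A1 had 125, 122 and 117 CPM in hypoxia, against 73, 72.1 and 71.8 CPM in normoxia, and rose 1.68-fold (log2 change 0.75 ± 0.04 SE, edgeR adjusted p = 5.34e-08). COL18A1, whose product is the source of endostatin, had 6.37, 7.46 and 6.32 CPM in hypoxia, against 4.25, 3.8 and 2.7 CPM in normoxia (log2 change 0.90 ± 0.17 SE, edgeR adjusted p = 0.00059). The direction of COL18A1 turned on the FPKM scale, where it averaged 2.29 FPKM in hypoxia and 2.48 FPKM in normoxia. The coding transcripts of COL18A1 alone averaged 0.91 ± 0.102 FPKM in hypoxia and 0.386 ± 0.202 FPKM in normoxia (SD, n = 3 each). They gave 39.8% of its FPKM in hypoxia and 15.6% in normoxia. Its exons also share 1401 bases with SLC19A1 on the opposite strand, a folate carrier gene at 15.4 CPM in hypoxia and 28.9 CPM in normoxia.

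COL6A1, a chain of the beaded microfilaments that surround many cells, had 6.06, 7.03 and 5.51 CPM in hypoxia, against 1.59, 1.67 and 2.14 CPM in normoxia. It rose 3.44-fold (log2 change 1.78 ± 0.16 SE, edgeR adjusted p = 2.94e-06). Its partner chains in the type VI monomer were below the filter, COL6A2 with 9, 7 and 4 counts in hypoxia and 0, 0 and 1 in normoxia, and COL6A3 with 11, 4 and 8 counts in hypoxia and 4, 5 and 1 in normoxia. Of the type VI genes, COL6A1 was thus the only 1 tested of 5.

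Fibril-associated collagens, which lie on the surface of fibrils, moved in both directions. COL16A1 had 11.2, 10.1 and 9.31 CPM in hypoxia, against 6.82, 6.15 and 7.14 CPM in normoxia (log2 change 0.61 ± 0.11 SE, edgeR adjusted p = 0.000404). Its coding transcript COL16A1-203 did not pass (log2 change 0.33 ± 0.18 SE, edgeR adjusted p = 0.225). The retained-intron COL16A1-215 rose (log2 change 1.28 ± 0.36 SE, edgeR adjusted p = 0.0438). COL9A2, a chain of cartilage type IX collagen, had 0.14, 0.173 and 0.299 CPM in hypoxia, against 0.705, 0.85 and 0.663 CPM in normoxia, and fell by 1.85 ± 0.38 on the log2 scale (SE, edgeR adjusted p = 0.00124). It was kept through normoxia libraries alone, and its hypoxia values stand for 5, 6 and 10 counts. Its partner COL9A3 had 2.27, 2.54 and 1.83 CPM in hypoxia, against 2.72, 2.12 and 2.29 CPM in normoxia, with overlapping groups and no call (edgeR adjusted p = 0.633). COL12A1 was far more abundant than COL9A2, and its share of collagen FPKM was 0.766% in hypoxia and 4.48% in normoxia.

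The remaining tested genes were low. COL8A1, a short-chain collagen of vessel walls and the cornea, had 7.6, 6.37 and 6.5 CPM in hypoxia, against 6.85, 4.8 and 6.17 CPM in normoxia, and did not pass (log2 change 0.20, edgeR adjusted p = 0.231). COL28A1, a type VI-like collagen of peripheral nerve, had 0.561, 0.461 and 0.389 CPM in hypoxia, against 0.227, 0.25 and 0.229 CPM in normoxia (log2 change 0.99 ± 0.36 SE, edgeR adjusted p = 0.0305). That call was lost in 9 of its 10 alternatives, among them leaving out hypoxia C4 or C5 or any normoxia library. At least 92.3% of the COL28A1 counts in each library lay on COL28A1-202, a transcript annotated as nonsense-mediated decay. The coding transcripts of COL28A1 had a mean of 0 FPKM in both groups. COL26A1 averaged 0.280 CPM in hypoxia and 0.522 CPM in normoxia and did not pass (edgeR adjusted p = 0.108), whereas without hypoxia C5 it did (log2 change -1.56, adjusted p = 0.0165).

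Collagen mRNA as a whole was more abundant in hypoxia, largely through COL5A1. The FPKM values of the 44 genes summed to 684, 656 and 620 in hypoxia, against 365, 357 and 352 in normoxia. Without COL5A1 the sums were 362, 344 and 333 FPKM in hypoxia, against 281, 276 and 272 FPKM in normoxia. The groups did not overlap either way.

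The make-up of this pool differed between the groups, as the plot of shares by library shows. COL5A1 made up 47.2%, 47.6% and 46.3% of collagen FPKM in hypoxia, against 23.1%, 22.7% and 22.8% in normoxia. The fibrillar class held a mean of 54.8% in hypoxia and 34.6% in normoxia, and the type IV class a mean of 29.3% in hypoxia and 50% in normoxia. The share of COL4A2, the most abundant type IV mRNA per length, was 15.1% in hypoxia and 24.6% in normoxia, although its own level rose. The share of COL7A1 was 8.9% in hypoxia and 4.01% in normoxia. These shares are descriptions of each library and carry no test.

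Shares depend on which transcripts are counted. When only transcripts annotated as protein coding were summed, an alternative chosen after seeing the data, COL5A1 held 54.4% in hypoxia and 25.7% in normoxia. COL7A1 then held 1.82% in hypoxia and 0.702% in normoxia, since coding transcripts gave 15.9% of its FPKM in hypoxia and 14.2% in normoxia. For COL4A6 the coding part was 3.04% of its FPKM in hypoxia and 5.71% in normoxia. The fibrillar share was 61.5%, 62.7% and 61.0% in hypoxia, against 37.3%, 36.9% and 37.0% in normoxia on this count, so the order of the groups stayed as before.

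**Figure D3:**
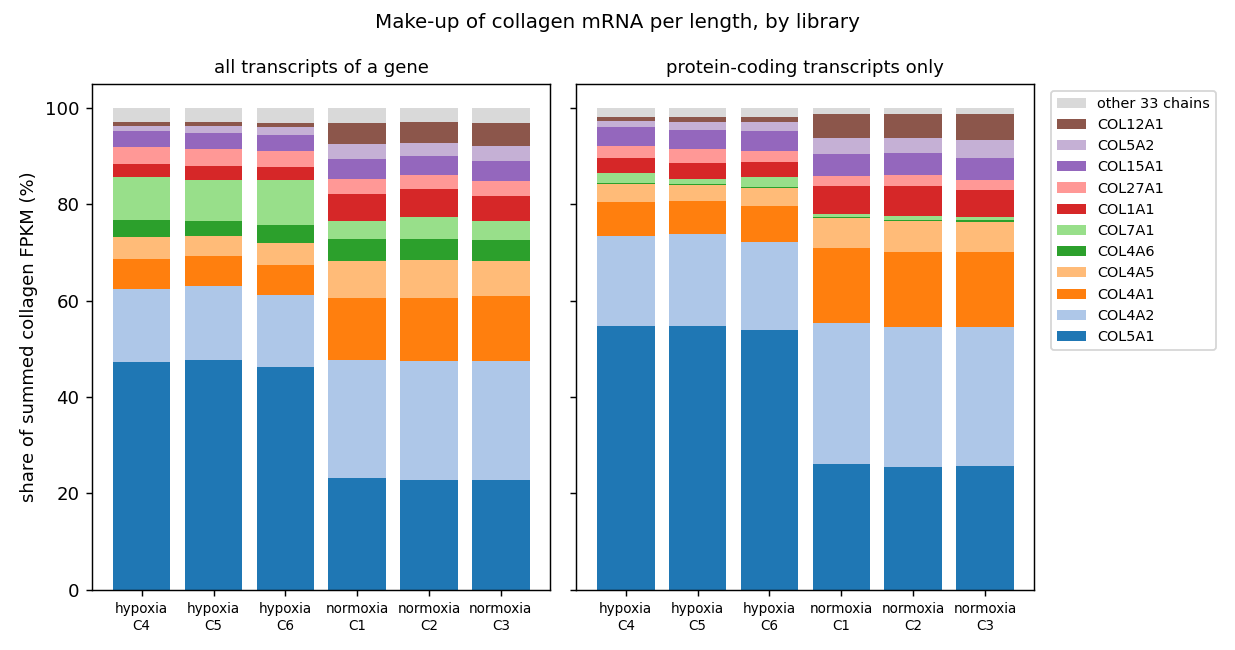
Share of summed collagen FPKM (y axis, percent) held by 11 collagen chain genes and by the other 33 together in each library, for all transcripts of a gene at left and for protein-coding transcripts at right. The COL5A1 segment is taller in every hypoxia bar than in every normoxia bar, with means of 47.0% in hypoxia and 22.9% in normoxia at left.

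Transcript rows show which isoform carried these counts, with the reservation that RSEM's division of reads among isoforms is an estimate. Of 373 collagen transcripts in the table, 101 were tested, and 35 rose, 9 fell and 57 did not pass edgeR's quasi-likelihood test, where 29.5% of all 74527 transcripts tested were called. COL5A1 was carried almost wholly by the 8442-base coding transcript COL5A1-201, which took 97.6%, 97.4% and 97.9% of the gene's counts in hypoxia, against 97.6%, 98.7% and 98.3% in normoxia. It averaged 2413 ± 150 CPM in hypoxia and 602 ± 7.5 CPM in normoxia (SD, n = 3 each).

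COL7A1 had more counts on a retained-intron transcript, COL7A1-210, than on its full coding transcript. COL7A1-210 had 141, 129 and 122 CPM in hypoxia, against 27.4, 25 and 22.7 CPM in normoxia. The coding COL7A1-201 had 111, 55.2 and 101 CPM in hypoxia, against 15.8, 23.3 and 15.7 CPM in normoxia. Both rose, with log2 changes of 2.38 ± 0.09 for COL7A1-210 (SE, edgeR adjusted p = 2.83e-05) and 2.28 ± 0.31 for COL7A1-201 (SE, edgeR adjusted p = 0.00283).

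The rise of COL4A6 lay in transcripts that are not annotated as coding. The 865-base retained-intron transcript COL4A6-205 had 15.4, 13.9 and 15.2 CPM in hypoxia, against 10.5, 10.1 and 9.95 CPM in normoxia, and the 1889-base noncoding COL4A6-204 had 12.1, 11.1 and 9.87 CPM in hypoxia, against 4.91, 4.79 and 5.43 CPM in normoxia. The log2 changes were 0.54 ± 0.09 for COL4A6-205 (SE, edgeR adjusted p = 0.00599) and 1.13 ± 0.13 for COL4A6-204 (SE, edgeR adjusted p = 0.00147). The coding transcript COL4A6-208 averaged 4.77 ± 0.428 CPM in hypoxia and 5.73 ± 0.977 CPM in normoxia (SD, n = 3 each), and its log2 change of -0.26 ± 0.17 did not pass the edgeR test (SE, adjusted p = 0.314).

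COL4A5 had a pair of coding transcripts of nearly the same length. COL4A5-202 had 78.8, 77 and 72.1 CPM in hypoxia, against 56.9, 49.6 and 57.4 CPM in normoxia, and rose with a log2 change of 0.47 ± 0.08 (SE, edgeR adjusted p = 0.00534). COL4A5-201 had 40.7, 29.2 and 34.2 CPM in hypoxia, against 40.3, 48.3 and 44.9 CPM in normoxia, a log2 change of -0.36 ± 0.14 that did not pass (SE, edgeR adjusted p = 0.0996). The main coding transcript of COL4A1, COL4A1-201, passed as fallen with a log2 change of -0.15 ± 0.04 (SE, edgeR adjusted p = 0.0441), and that of COL4A2, COL4A2-201, rose by 0.36 ± 0.05 on the log2 scale (SE, edgeR adjusted p = 0.00413). Both main coding transcripts of COL12A1 fell, by 1.44 for COL12A1-201 and by 1.97 for COL12A1-203 on the log2 scale. For COL13A1, the most abundant transcript was the retained-intron COL13A1-207, with means of 2.52 CPM in hypoxia and 0.048 CPM in normoxia. Its log2 change was 5.62 ± 0.57 (SE, edgeR adjusted p = 0.000957). The most abundant coding transcript, COL13A1-213, had 1.13, 1.95 and 2.75 CPM in hypoxia and 0 counts in normoxia. Coding transcripts gave 60.9% of COL13A1 FPKM in hypoxia and 73.7% in normoxia. For COL18A1, none of the tested transcripts passed. The 588-base noncoding COL18A1-206 held 15%, 8.91% and 10% of the gene's counts in hypoxia, against 26.2%, 32.2% and 36.8% in normoxia.

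**Figure D4:**
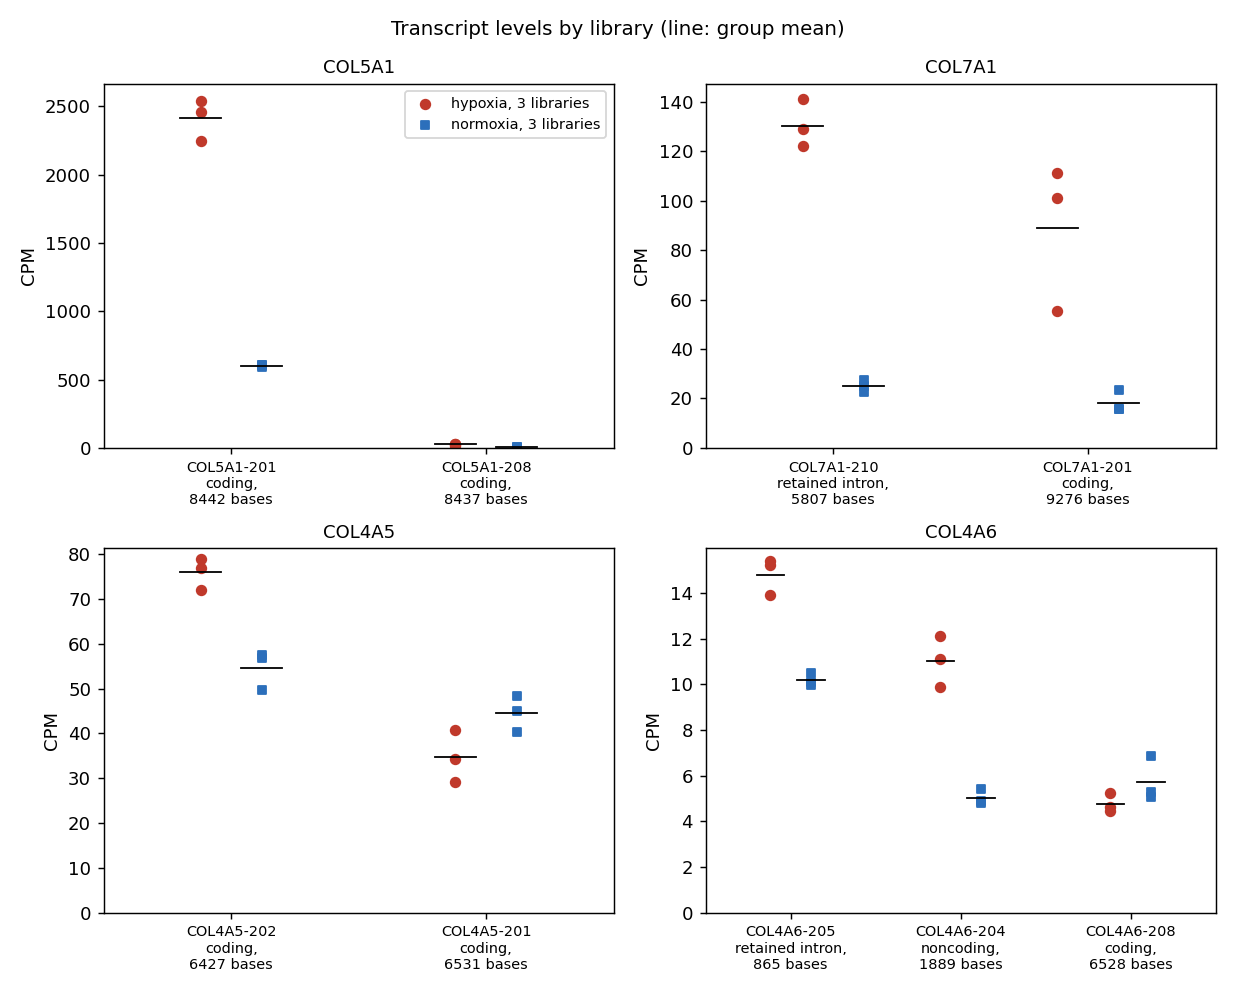
CPM (y axis, from 0) of the most abundant transcripts of COL5A1, COL7A1, COL4A5 and COL4A6, with circles for the 3 hypoxia libraries, squares for the 3 normoxia libraries and lines for group means. COL5A1-201, COL7A1-210, COL7A1-201, COL4A5-202, COL4A6-205 and COL4A6-204 lie higher in all hypoxia libraries than in any normoxia library, while the coding COL4A6-208 overlaps.

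Genes that act on collagens were followed in 6 lists written from textbook knowledge. Among enzymes and chaperones of folding and modification, 16 of 18 were tested, with 8 risen, 7 fallen, 1 not called and a median log2 change of 0.15. The risen ones included prolyl 4-hydroxylase subunits, which make the hydroxyproline that stabilises the helix. P4HA2 averaged 497 ± 8.7 CPM in hypoxia and 84.1 ± 2.38 CPM in normoxia (SD, n = 3 each), and P4HA1 averaged 436 ± 26.3 CPM in hypoxia and 92.7 ± 4.92 CPM in normoxia. Of the lysyl hydroxylases, PLOD2 rose with a log2 change of 2.32 ± 0.08 (SE, edgeR adjusted p = 1.06e-09) and PLOD1 with 1.53 ± 0.05 (SE, edgeR adjusted p = 6.37e-10). PLOD3 fell, with means of 62.9 ± 6.13 CPM in hypoxia and 82.7 ± 3.06 CPM in normoxia (SD, n = 3 each, edgeR adjusted p = 0.000343). The largest fall of the list was that of P3H2, a prolyl 3-hydroxylase, with a log2 change of -1.06 ± 0.09 (SE, edgeR adjusted p = 2.12e-06). CRTAP, P3H1, P3H4, PPIB and TMEM38B fell by less.

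The list of cross-linking enzymes, which also holds the fibril-binding proteoglycans DCN, FMOD and LUM, had 5 of 10 genes tested, all of them enzymes, with 4 risen, none fallen, 1 not called and a median log2 change of 1.37. LOXL2, a lysyl oxidase that joins collagen molecules, averaged 916 ± 34.2 CPM in hypoxia and 127 ± 3.41 CPM in normoxia (SD, n = 3 each), and PXDN, the peroxidase that links type IV collagen, averaged 390 ± 7.99 CPM in hypoxia and 151 ± 1.03 CPM in normoxia. LOX itself was below the filter. Of 15 genes of secretion and propeptide processing, 10 were tested, with 5 risen, 3 fallen, 2 not called and a median of 0.15. ADAMTS3, a procollagen N-proteinase, fell by 3.39 on the log2 scale to a mean of 0.106 CPM in hypoxia, against 1.14 CPM in normoxia. TLL1, a C-proteinase of the BMP1 family, averaged 42.6 CPM in hypoxia and 18.9 CPM in normoxia (log2 change 1.17).

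Of 12 receptors, 11 were tested, with 7 risen, 1 fallen, 3 not called and a median of 0.29. ITGA2, the alpha subunit of a collagen-binding integrin, had 1136, 1071 and 1195 CPM in hypoxia, against 373, 394 and 413 CPM in normoxia, and DDR2, a receptor kinase for fibrillar collagen, fell with means of 4.92 CPM in hypoxia and 7.52 CPM in normoxia. Of 11 degradation genes, 7 were tested, with 5 risen, none fallen, 2 not called and a median of 0.77. MMP1, the interstitial collagenase, averaged 6.98 ± 0.0974 CPM in hypoxia and 0.227 ± 0.0275 CPM in normoxia (SD, n = 3 each).

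The partners of type IV collagen in basement membranes moved in both directions. Of 16 listed, 14 were tested, with 3 risen, 7 fallen, 4 not called and a median log2 change of -0.16. LAMB3, a laminin beta chain, averaged 1066 ± 39.2 CPM in hypoxia and 142 ± 2.24 CPM in normoxia (SD, n = 3 each). LAMA3, a laminin alpha chain, averaged 20.5 CPM in hypoxia and 22.3 CPM in normoxia and did not pass (edgeR adjusted p = 0.127). LAMA1, a laminin alpha chain of early basement membranes, fell to 5.52 CPM in hypoxia, against 22.6 CPM in normoxia, and NID2, which links laminin to type IV collagen, rose with means of 3.06 CPM in hypoxia and 0.353 CPM in normoxia. Over the 6 lists, 50 of 63 tested genes were called, where 72.8% of all genes tested and 77.7% of the tested protein-coding genes were. All listed genes are protein coding, so the second share is the closer background.

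**Figure D5:**
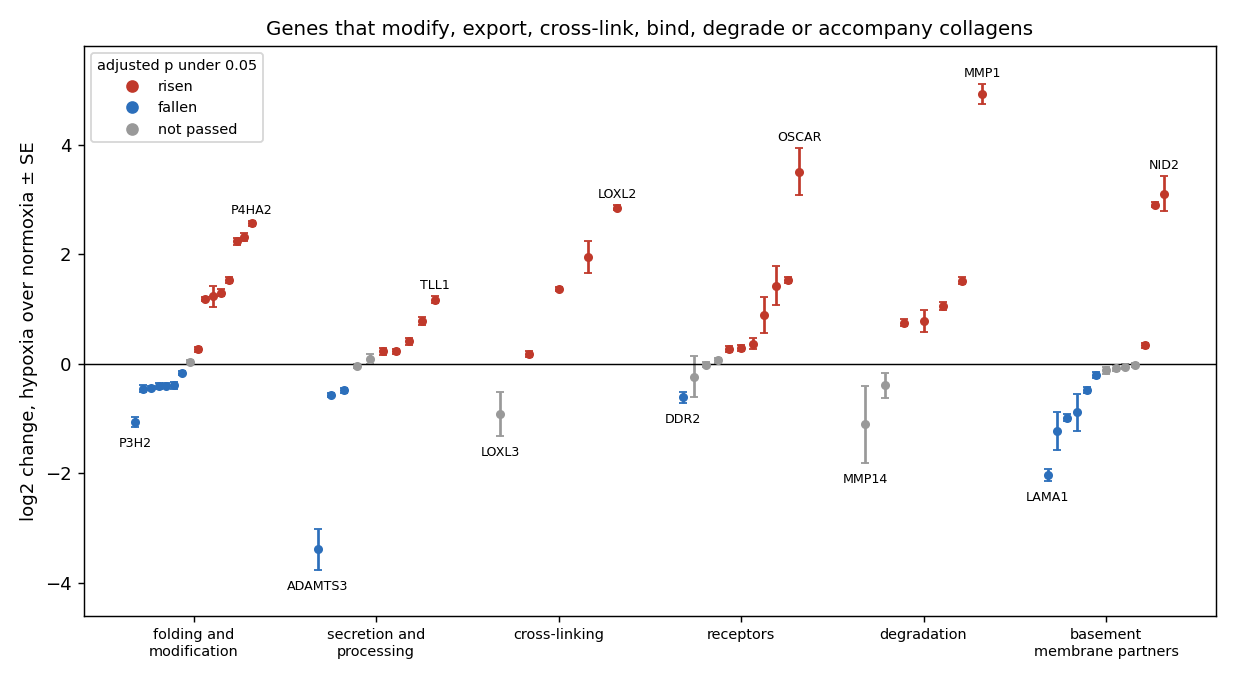
Log2 change in hypoxia over normoxia (y axis) with its SE for 62 of the 63 tested genes of 6 lists around collagen, sorted within each list, with the lowest and highest gene shown in each list named. P4HA2, LOXL2 and MMP1 top their lists at 2.56, 2.85 and 4.92, and LAMA1 is at -2.03 among the basement membrane partners.

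Markers of other cell types also differed between the groups, and their part in the collagen results was not tested. The 10 listed macrophage markers summed to 51.3, 56.5 and 48.1 CPM in hypoxia, against 7.68, 7.95 and 8.11 CPM in normoxia, and PTPRC, AIF1, C1QA and C1QB had 0 counts. CD68, a lysosomal protein, gave most of that sum, with means of 46.4 CPM in hypoxia and 6.2 CPM in normoxia, and of these markers 2 rose and 1 fell. The 8 cholangiocyte markers summed to 340, 368 and 334 CPM in hypoxia, against 85.3, 82 and 76.7 CPM in normoxia, with 6 of them under 1 CPM in every library. The other two went opposite ways, since MUC1, an epithelial mucin, rose with means of 333 CPM in hypoxia and 28.3 CPM in normoxia, and KRT7, a keratin, fell with means of 14.0 CPM in hypoxia and 52.9 CPM in normoxia. The 10 endothelial markers summed to 12.8, 13.3 and 13.3 CPM in hypoxia, against 20.3, 19.3 and 20.1 CPM in normoxia, and 7 of them were under 1 CPM in every library. Of these markers 2 rose and 3 fell. CDH5, the endothelial cadherin, fell with means of 0.453 CPM in hypoxia and 9.15 CPM in normoxia, and PECAM1, an adhesion molecule of endothelium, rose with means of 4.86 CPM in hypoxia and 2.11 CPM in normoxia.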

How the data were processed

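The authors deposited a table of 251062 transcripts with, per the file headers, a length and an expected count per library, a read count that RSEM divides among isoforms. The submitters' processing notes name cutadapt, HISAT2, RSEM and GRCh38, with no versions or strand setting. Column names gave each library's group but matched no replicate number, and 6 further columns of per-library values, the deposited FPKM, were not used.

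Expected counts were summed per GENCODE release 29 gene and rounded. The 48155 transcripts without a gene there held 6.12% to 6.39% of a library's counts and were left out. Genes passing filterByExpr were tested with edgeR 4.0.16 (TMM, two-sided quasi-likelihood test, R 4.3.3), with Benjamini-Hochberg adjustment over 17396 genes, and all transcripts likewise. The SE is the log2 change divided by the square root of F. FPKM was computed from the counts, the listed transcript lengths and library totals, and summed per gene. These are not effective lengths, so short transcripts may be misjudged, and shares and limma calls here can differ from those of the deposited FPKM. Shares and ratios were not tested. The chi-square of library pairs within a group was 4.53 to 11.0 times its degrees of freedom, so no pair agreed within sampling noise. The test was checked on simulated data.

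Alternatives were other filters, DESeq2 1.42.0, library totals, limma 3.58.1 on log2 FPKM with pseudocounts of 0.1, 0.5 and 1, the most abundant transcript, and leaving out each library. Collagen members, gene lists and marker lists were chosen with earlier results of these data known. Every tested collagen was to be named, as were up to 4 called genes of each list with 1 CPM or more in a group, by largest log2 change, and the 2 most abundant transcripts of called genes. The text leaves out some of these, and 1 gene is not reported here.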

Additional observations from a re-analysis of the deposited data

How the results depend on the processing

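The 17 risen collagen genes became 10 of 18 tested with limma on log2(FPKM + 0.5), and the same with 0.1 or 1 added. The FPKM filter that goes with limma alone gave 12 risen and 3 fallen of 18 in edgeR. The 4 fallen genes became 2 with limma at each of these pseudocounts, COL12A1 from among the 4 and COL4A1 from outside them, and COL9A2 was not tested there. With the most abundant transcript for each gene 11 of 26 rose. Over all features the risen share was 36.5% in the gene fit, 30.9% with limma at a pseudocount of 0.5 and 29.9% with library totals. Over all 74527 transcripts tested it was 15.6%. That set holds minor isoforms too, so it is not a like background for the most abundant transcripts. Leaving out a library gave 16 to 17 risen and 4 to 5 fallen. Library totals, which shifted the median log2 change of all genes by -0.15, gave 15 risen and 5 fallen, and DESeq2 gave 15 and 4. COL18A1 reversed in limma, with log2 changes of -0.09, -0.11 and -0.08 for pseudocounts of 0.5, 0.1 and 1, none past the threshold, and the cause was not tested. Over all single genes and alternatives, 296 values kept their side of the threshold, 26 lost the call, 7 gained it and 3 reversed. Of the 296, the sign turned in 2, both of the uncalled COL9A3. The calls of COL3A1, COL4A3, COL4A4, COL9A2, COL16A1, COL18A1 and COL28A1 were lost when the most abundant transcript was tested alone, although log2 changes there were 1.26, 1.25, 0.80, -1.69, 0.33, 1.24 and 0.93 in that order. With coding transcripts only, chosen after seeing the data, the COL5A1 share in hypoxia was 54.4% in place of 47.0% and the type IV share 29.7% in place of 29.3%. No paired analysis was possible because the columns carry no replicate number of the labels. Genes with about 10 counts or fewer in a library, such as COL5A3, COL3A1 and COL13A1 in normoxia, are limited by depth.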
